A study of Homo sapiens with 19 samples.

Results

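Spheroids of A549 cells lysed 24 h after nanostraw electroporation (NEE) were compared with spheroids lysed before it, 2 libraries against 2. Of the 62700 genes listed in the files, the 13412 with at least 1 CPM (counts scaled to a library's size) in at least 2 of these 4 libraries are described. A549 is an established human lung adenocarcinoma line, and a spheroid is a small ball of cells grown without spreading on a dish. In NEE, hollow nanoscale tubes and short electric pulses open the cell membrane so that RNA can be drawn out while the cells live. The study sequenced 19 libraries, of which these 4 were spheroid lysates 24 h after NEE (replicates 1 and 2) and before NEE (replicates 1 and 2), with the line and the culture form shared by both groups. The remaining libraries were spheroids right after NEE and 2 h after it, monolayers at the same 4 times, and RNA drawn by NEE itself. Every later group went through NEE, and none was handled the same way without it, so NEE, handling and a further day in culture cannot be told apart.

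Electroporation opens pores in the plasma membrane, which cells close again by membrane fusion and shedding while they restore their ion balance. Repair draws on energy and membrane lipid, and long-chain acyl-CoA synthetases such as ACSL1 prepare fatty acids for both uses by joining them to coenzyme A. Electrons from fuel oxidation pass along the respiratory chain in the inner mitochondrial membrane to complex IV, cytochrome c oxidase, which hands them to oxygen and has both mitochondrially and nuclear-encoded subunits.

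The libraries 24 h after NEE held 20680570 and 17586855 counts over genes, and those before NEE held 18043940 and 17769267. At these depths 3 counts correspond to 0.145 and 0.171 CPM at 24 h and to 0.166 and 0.169 CPM before NEE, which covers counting error only since amplified reads without molecular identifiers are not independent molecules. The epithelial keratin KRT8 stood at 8596 and 11530 CPM at 24 h, against 8260 and 11370 CPM before NEE, and KRT18 at 4204 and 5631 CPM against 3728 and 5608 CPM. The epithelial markers EPCAM and CDH1 varied more. EPCAM stood at 7.03 and 3.07 CPM against 3.36 and 11.4 CPM, a log2 fold change of −0.55. CDH1 stood at 145.5 and 139.9 CPM against 232.5 and 95.7 CPM, a log2 fold change of −0.20, and both overlapped between the groups. All 37 mitochondrially encoded genes were listed at 0 in every library. Markers of natural killer and T cells summed to 23.2 and 25.4 CPM at 24 h, against 22.8 and 26.8 CPM before NEE, with 7 of 20 genes tested and none at 0 in all 4 libraries. Monocyte and macrophage markers summed to 63.8 and 34.3 CPM against 103 and 53.1 CPM, with 5 of 16 tested and FCGR1A, AIF1, TYROBP, CD163, MRC1 and LST1 at 0. Fibroblast markers summed to 7.56 and 9.04 CPM against 8.34 and 7.77 CPM (3 of 10 tested, PDGFRA and DPT at 0), and endothelial markers to 4.99 and 6.31 CPM against 3.07 and 6.32 CPM (2 of 10 tested, KDR, TEK, CLDN5 and TIE1 at 0).

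No gene passed the test 24 h after NEE. By edgeR's quasi-likelihood test with Benjamini-Hochberg adjustment, 0 of the 13412 genes were called higher and 0 lower (0.0% in each direction), and the lowest adjusted p was 0.9999. At an unadjusted p under 0.05 there were 140 higher genes (1.04%) and 124 lower ones (0.925%), in all 264 (1.97%). There were 230 and 234 with the replicate number as a block within each culture. DESeq2 called 0 genes higher and 1 lower (0.00746%). Both values at 24 h lay above both values before NEE for 1817 genes (13.5%) and below them for 1533 (11.4%), and with at least a 2-fold difference of means for 395 (2.95%) and 265 (1.98%). The log2 fold change, 24 h over before NEE, was positive for 50.1% of genes and negative for 49.9%, with a median of 0.00085, and the 5th and 95th percentiles were −0.78 and 0.89. The genes and lists below are therefore described by their values, and every gene named by rule had an edgeR adjusted p of 0.9999. Genes named for their smallest p or largest change were taken only where the groups did not overlap. Their lack of overlap follows from that choice. List members were named at an unadjusted p under 0.05 from the same values.

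**Figure D1:**
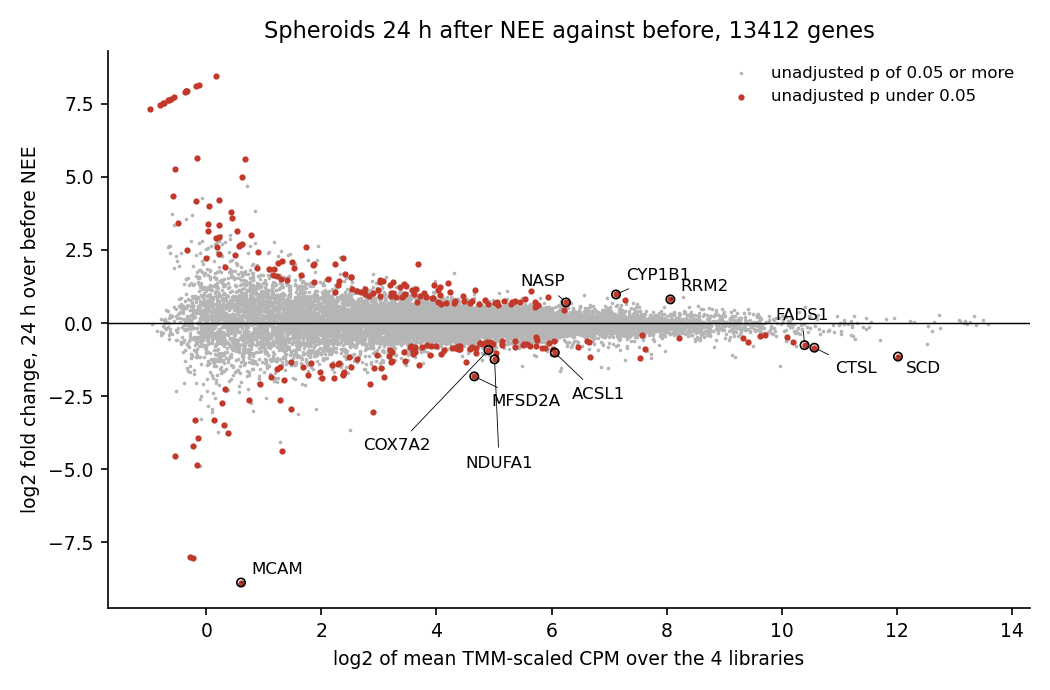
Each point is 1 of 13412 genes, with the log2 of its mean TMM-scaled CPM over the 4 libraries on the x axis and the fitted log2 fold change, 24 h over before NEE, on the y axis; red marks an unadjusted edgeR p under 0.05. SCD at −1.15, ACSL1 at −1.01 and RRM2 at 0.81 lie among well-measured genes, while the points beyond 5 on either side, MCAM included, are genes with no or almost no counts in 1 group, whose fitted values are no measured fold.

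Replicates of the same group differed as much as the groups did. Over all genes, the log2 difference between the replicates had an SD of 0.891 at 24 h and 0.903 before NEE, on values with 0.5 CPM added. Between the groups, replicate 1 at 24 h differed from replicate 1 before NEE with an SD of 0.753, and replicate 2 from replicate 2 with 0.832. A difference of at least 2-fold separated the replicates for 2656 genes (19.8%) at 24 h and for 2725 (20.3%) before NEE, against 2031 (15.1%) between the groups in replicate 1 and 2410 (18.0%) in replicate 2. The same order held among the 10054 genes with a mean of at least 5 CPM, with SDs of 0.781 and 0.769 within the groups, against 0.641 and 0.708 between them. Part of the replicate difference ran with base composition. Protein-coding genes with at least 5 CPM were cut into 10 groups by the GC share of the longest transcript. In the group with the lowest share (993 genes), the median of replicate 1 minus replicate 2 was −0.25 at 24 h and 0.32 before NEE, and in the group with the highest share it was 0.37 and −0.43. The fold change at 24 h over before NEE, which averages over the replicates, ran less steeply, with medians of 0.07 at the lowest share and −0.12 at the highest. The part of GC share in the single genes below was not tested gene by gene, and fits with GC offsets called 0 genes in either direction.

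**Figure D2:**
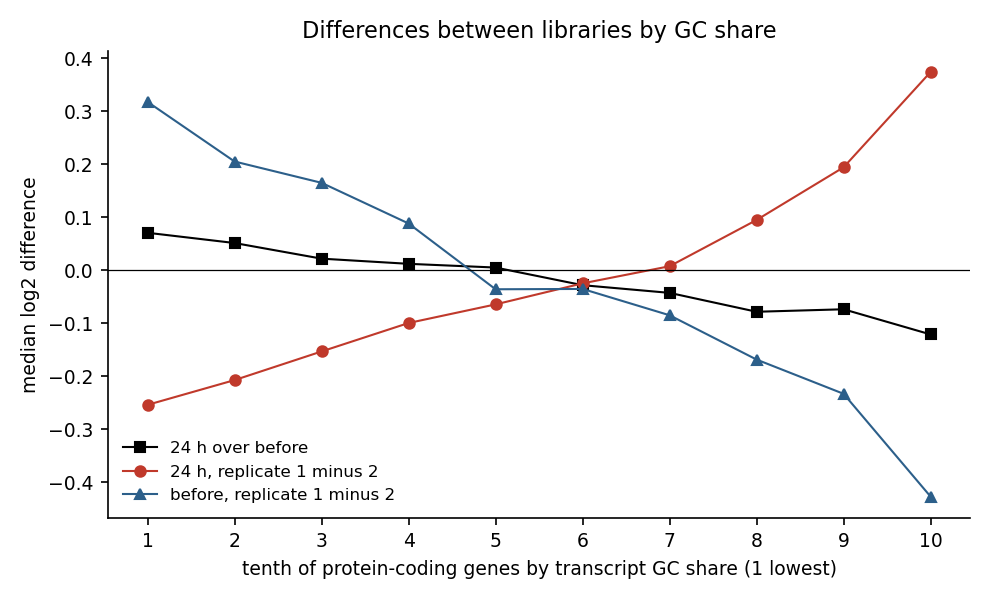
Median log2 difference (y axis) in each of 10 groups of protein-coding genes by transcript GC share (x axis, 1 lowest), for 24 h over before NEE (squares) and for replicate 1 minus replicate 2 at 24 h (circles) and before NEE (triangles). The replicate lines cross, running to 0.37 at 24 h and −0.43 before NEE at the highest share, while the group line stays between 0.07 and −0.12.

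ACSL1 was the gene with the lowest unadjusted p among those with at least 5 CPM in the higher group. ACSL1 (ENSG00000151726, chromosome 4, 184755595 to 184826818, minus strand, GRCh38) stood at 46.2 and 42.0 CPM at 24 h, against 93.9 and 84.3 CPM before NEE. Both 24 h libraries lay below both earlier ones, and the replicates of each group lay close together. The log2 fold change was −1.01 ± 0.27 (SE), with an unadjusted p of 0.00272 and an adjusted p of 0.9999 (edgeR). In the spheroids between these times, ACSL1 stood at 107 and 97.7 CPM right after NEE and at 109 and 69.5 CPM 2 h after it, so that both values at 24 h lay below every earlier one. In a bulk lysate, less RNA in each cell and fewer cells that make it cannot be told apart. Across leaving out each library, the other scalings and filters, the replicate block, GC offsets and DESeq2, its log2 fold change lay between −1.09 and −0.93 with adjusted p of 0.608 to 1.0 (edgeR or DESeq2). The 300 bases around an ACSL1 start site are shown because the gene leads the comparison. They are from RefSeq on GRCh38.p14, chr4:184825919-184826218, minus strand, 250 bases before to 50 after the start, 1 of 5 windows listed for the gene. Capitals mark GGGGCGGGG, the GC box that the factor Sp1 binds, searched on both strands.

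ACSL1: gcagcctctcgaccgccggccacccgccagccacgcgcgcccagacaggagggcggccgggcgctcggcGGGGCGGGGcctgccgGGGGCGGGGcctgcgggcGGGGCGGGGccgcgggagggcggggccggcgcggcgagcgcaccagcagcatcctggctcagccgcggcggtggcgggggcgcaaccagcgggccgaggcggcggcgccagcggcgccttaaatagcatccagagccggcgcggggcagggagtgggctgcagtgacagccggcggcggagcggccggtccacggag

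This window held 3 matches that did not overlap one another, and matches in the other windows of the gene are not given here. GGGGCGGGG was also found in 3665 of 15026 windows (24.4%) of 10247 tested genes, and a match is not a measured site.

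The genes whose levels ran most like ACSL1 over the 8 spheroid libraries were chosen by Pearson correlation of log2(CPM + 1) among 9927 genes, and the libraries share their replicate numbers and times. TSPAN9, a tetraspanin membrane protein, had r = 0.97. Its level was 2.85 and 2.20 CPM at 24 h, against 9.32 and 6.72 CPM before NEE. HSD17B14, a steroid dehydrogenase, had r = 0.96, with 12.4 and 13.2 CPM at 24 h against 22.1 and 19.4 CPM. For both genes the groups did not overlap. SLC37A3 and ZGPAT, a zinc finger protein, had r = 0.92 and SLIRP, which binds mitochondrial mRNAs, 0.91, and all lay lower at 24 h with no overlap (SLIRP 7.65 and 5.44 CPM against 12.7 and 8.40 CPM). Because these genes were picked for running like ACSL1 over libraries that include those compared, their lower values at 24 h follow in part from the choice.

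Enzymes of fatty acid synthesis and desaturation were lower at 24 h in 14 of 15 members tested, against 49.9% of all genes. The median log2 fold change of the list was −0.34, against 0.00085 over all genes, and it was −0.39 in replicate 1 and −0.28 in replicate 2. SCD, the stearoyl-CoA desaturase that makes oleic acid, stood at 2107 and 3064 CPM at 24 h, against 6789 and 4661 CPM before NEE, a log2 fold change of −1.15 ± 0.53 (SE). FADS1, the delta-5 desaturase of polyunsaturated fatty acids, stood at 829.8 and 1176 CPM against 1648 and 1740 CPM, a log2 fold change of −0.76 ± 0.26 (SE). For both desaturases every 24 h value lay below every value before NEE. Without the filter on low values SCD was called, and its adjusted p over all alternatives ran from 0.0145 to 1.0 (edgeR or DESeq2). Non-overlapping lower values were seen for 5 of the 15 (against 11.4% of all genes) and higher ones for 1 (13.5%). FASN, the fatty acid synthase, chosen after its values were seen, stood at 26.9 and 11.5 CPM against 11.6 and 70.7 CPM, so its replicates spanned the difference. Leaving out 1 library in turn put the list median between −0.46 and −0.14.

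Further lipid genes were named for their unadjusted p, from different lists or, for MFSD2A, from none. MFSD2A, a transporter of lysophospholipids, stood at 7.603 and 14.7 CPM at 24 h, against 52.8 and 25.9 CPM before NEE, a log2 fold change of −1.82 ± 0.56 (SE). ABHD5, the coactivator of the triglyceride lipase of lipid droplets, stood at 14.1 and 15.2 CPM against 35.8 and 19.0 CPM, a log2 fold change of −0.90. SLC27A4, a fatty acid transport protein, stood at 29.04 and 43.2 CPM against 44.2 and 75.1 CPM, a log2 fold change of −0.73. None of the 3 overlapped between groups, although for SLC27A4 the higher value at 24 h and the lower one before NEE nearly met. MFSD2A was called without the filter on low values, with adjusted p from 0.0498 to 1.0 over the alternatives (edgeR or DESeq2). PLIN2, the protein coat of lipid droplets, chosen after its values were seen, had 502 and 225 CPM against 1215 and 402 CPM, with overlap. Over the 18 PPAR targets and lipid droplet genes the median was −0.20, with 11 lower, 7 higher and 3 lower at an unadjusted p under 0.05 (0.925% of all genes), and it moved between −0.97 and 0.05 with 1 library left out, with the sign turned without replicate 2 at 24 h. The 26 genes of fatty acid activation and oxidation had a median of −0.03, with 14 lower and 12 higher, and −0.06 to 0.18 with 1 library left out. ACSL1 belongs to both lists.

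The nuclear-encoded subunits of complex IV had the lowest median of the 37 lists described. All 11 members tested were lower at 24 h, 9 of them with no overlap between the groups and 5 at an unadjusted p under 0.05 (edgeR), against 11.4% and 0.925% of all genes. The median log2 fold change was −0.69, with members between −1.09 and −0.20, and it was −0.66 in replicate 1 and −0.71 in replicate 2. Leaving out 1 library moved the median between −0.94 and −0.51, and the other alternatives, with the GC offsets among them, between −0.71 and −0.67. COX7A2, a small structural subunit, stood at 21.3 and 19.98 CPM at 24 h, against 45.6 and 32.9 CPM before NEE, a log2 fold change of −0.93 ± 0.28 (SE). NDUFA4, first assigned to complex I and later to complex IV, stood at 54.7 and 39.8 CPM against 76.2 and 76.9 CPM, a log2 fold change of −0.69 ± 0.24. For both subunits the 24 h libraries lay below the earlier ones, with replicate 2 the lower at 24 h. Further members, chosen after their values were seen, showed the same order. COX8A, another small structural subunit, stood at 11.02 and 7.99 CPM against 19.7 and 20.8 CPM. COX6B1, which faces the intermembrane space, stood at 49.7 and 30.9 CPM against 76.7 and 70.1 CPM. COX5B, a subunit on the matrix side, stood at 27.6 and 20.5 CPM against 43.9 and 34.4 CPM. Replicate 2 was the lower library at 24 h for all 3 subunits. COX4I1, another nuclear subunit, stood at 153 and 109.6 CPM against 149.9 and 152.6 CPM and so overlapped, as did COX7B at 45.9 and 53.8 CPM against 84.5 and 50.4 CPM.

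Over the spheroid time series, the median of the complex IV members, as log2 level relative to the mean of the 4 compared libraries, was 0.51 and 0.18 before NEE, 0.09 and 0.28 right after it, −0.15 and −0.19 at 2 h and −0.14 and −0.49 at 24 h. The 2 h and 24 h libraries thus lay below the others, at similar levels except for replicate 2 at 24 h, which was the lowest. Because many of these subunits have processed pseudogenes and no source used here says how multiply mapping reads were counted, their absolute levels are uncertain.

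**Figure D3:**
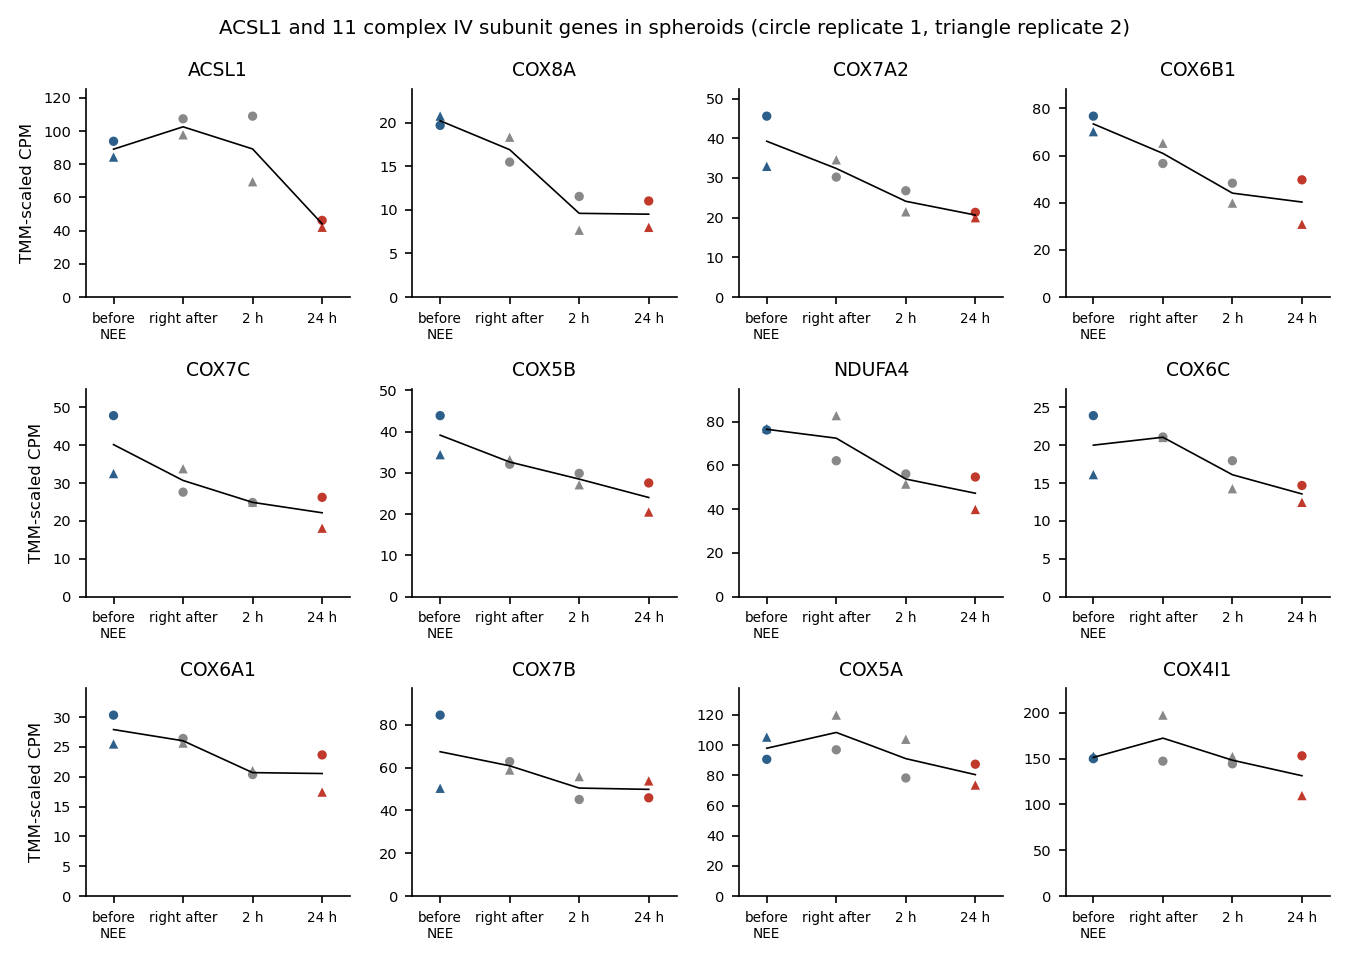
TMM-scaled CPM (y axis, from 0) of ACSL1 and the 11 complex IV members tested in spheroids before NEE, right after, 2 h and 24 h after it (x axis), with circles for replicate 1, triangles for replicate 2 and lines through the group means. ACSL1 is lowest at 24 h, at 46.2 and 42.0 CPM, whereas COX8A and COX6B1 also lie below their values before NEE at 2 h.

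Promoters of 2 complex IV genes are shown because all complex IV members tested were lower and these windows hold the element CCGGAAGT, which factors of the ETS family such as the respiratory chain regulator GABP bind. Both are from RefSeq on GRCh38.p14, 250 bases before to 50 after the start, with matches on either strand in capitals. COX8A is at chr11:63974370-63974669, plus strand, and COX5B at chr2:97645812-97646111, plus strand.

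COX8A: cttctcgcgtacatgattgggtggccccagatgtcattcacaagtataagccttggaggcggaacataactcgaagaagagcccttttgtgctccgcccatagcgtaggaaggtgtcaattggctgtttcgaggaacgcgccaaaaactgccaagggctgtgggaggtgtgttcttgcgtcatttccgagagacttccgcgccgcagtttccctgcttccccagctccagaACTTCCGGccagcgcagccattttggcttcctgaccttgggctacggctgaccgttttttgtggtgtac

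COX5B: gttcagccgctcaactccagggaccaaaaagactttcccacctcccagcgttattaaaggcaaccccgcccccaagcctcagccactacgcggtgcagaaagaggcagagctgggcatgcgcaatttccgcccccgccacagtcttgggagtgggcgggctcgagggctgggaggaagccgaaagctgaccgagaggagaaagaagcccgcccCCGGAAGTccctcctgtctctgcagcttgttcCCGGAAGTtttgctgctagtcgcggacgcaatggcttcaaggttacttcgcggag

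The COX8A window held 1 match, on the opposite strand as ACTTCCGG, and the COX5B window 2, which did not overlap. Of the 11 members, 9 had windows (10 in all), and the element stood in 2 of the 10, against 1105 of 15026 windows (7.35%) of tested genes. The GC box GGGGCGGGG stood in 1 of the 10, that of COX5B.

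The other complexes of oxidative phosphorylation were shifted less. Complex I had 26 of 36 members lower, 13 of them with no overlap (against 11.4% of all genes), and 3 higher with none (13.5%). Its median was −0.17, and −0.21 to −0.18 with 1 library left out. NDUFA1, an accessory subunit encoded on the X chromosome, stood at 21.7 and 16.6 CPM at 24 h, against 52.3 and 38.4 CPM before NEE, a log2 fold change of −1.24 ± 0.42 (SE). NDUFS5, another accessory subunit, stood at 20.2 and 8.80 CPM against 31.1 and 23.0 CPM, a log2 fold change of −0.89. Neither gene overlapped between the groups. Complex III had 7 of 9 members lower and a median of −0.18, which ran from −0.36 to 0.06 with 1 library left out and was positive without replicate 1 at 24 h. Its subunit UQCRQ, a small accessory subunit, stood at 28.2 and 27.5 CPM against 43.3 and 42.0 CPM, a log2 fold change of −0.61 with replicates that nearly coincided. ATP synthase had 13 of 17 members lower, 7 with no overlap (11.4% of all genes), and a median of −0.19, with −0.41 to −0.10 when 1 library was left out. ATP5MJ, a small membrane subunit, stood at 21.8 and 22.4 CPM against 36.3 and 34.8 CPM, a log2 fold change of −0.68. The 4 subunits of complex II had a median of 0.10, with 3 higher, and −0.09 without replicate 2 at 24 h. Cytosolic ribosomal proteins, whose mRNAs are also short, had a median of −0.15 over 67 genes, with 36 lower. With no overlap, 12 were lower (11.4% of all genes) and 12 higher (13.5%). The median of all 67 was 0.03 in replicate 1 and −0.40 in replicate 2. Their median ran from −0.55 without replicate 1 at 24 h to 0.10 without replicate 2.

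Lysosomal and autophagy genes were lower in 27 of 31 members, against 49.9% of all genes. With no overlap between the groups, 13 members were lower (11.4% of all genes) and 0 higher (13.5%). The list median was −0.24, with −0.30 in replicate 1, −0.21 in replicate 2 and −0.31 to −0.16 with 1 library left out. CTSL, the lysosomal protease cathepsin L, stood at 957 and 1216 CPM at 24 h, against 2022 and 1878 CPM before NEE, a log2 fold change of −0.84 ± 0.33 (SE). CTSD, cathepsin D, and GRN, progranulin, chosen after their values were seen, stood at 495 and 531 CPM against 675 and 723 CPM, and at 1484 and 1569 CPM against 1817 and 1834 CPM. In each of these 3 genes the replicates lay closer together than the groups.

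Chaperones and translocation factors of the endoplasmic reticulum were lower in 20 of 25 members of the unfolded protein response list. The median was −0.28, and 9 members were lower (11.4% of all genes) and 0 higher (13.5%) with no overlap. HYOU1, a chaperone of the ER lumen, stood at 33.2 and 51.3 CPM at 24 h, against 82.2 and 69.5 CPM before NEE, a log2 fold change of −0.85 ± 0.33 (SE). SEC61B, part of the channel through which proteins enter the ER, stood at 14.7 and 12.9 CPM against 21.7 and 28.3 CPM, a log2 fold change of −0.86 ± 0.35. Both had 24 h values below all values before NEE. PDIA4 and PDIA6, disulfide isomerases chosen after their values were seen, stood at 749.8 and 1077 CPM against 1322 and 1237 CPM, and at 642 and 788 CPM against 936 and 978 CPM. For HSPA5, the main ER chaperone, the 24 h values were 1526 and 2589 CPM against 2951 and 2613 CPM, so that replicate 2 at 24 h almost reached the earlier group. The median lay between −0.46 and −0.18 with 1 library left out. ATF4 targets, which serve amino acid supply under stress, had a median of −0.08 over 26 genes. It was −0.19 to 0.03 when 1 library was left out. With no overlap, 3 of these targets were lower (11.4% of all genes) and 3 higher (13.5%). Among them CTH, an enzyme of cysteine synthesis, stood at 4.71 and 7.99 CPM against 10.8 and 13.3 CPM, a log2 fold change of −0.93, lower in both 24 h libraries.

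Genes of DNA replication were more often higher than lower at 24 h. Of 43 genes of the G1/S phase, 32 were higher, 11 of them with no overlap (against 13.5% of all genes) and 2 lower with none (11.4%). The median was 0.13. RRM2, the ribonucleotide reductase subunit made in S phase, stood at 370.4 and 312 CPM at 24 h, against 195 and 195 CPM before NEE, a log2 fold change of 0.81 ± 0.33 (SE). Not on the list but named for their small unadjusted p were 3 further genes with roles in chromatin or replication. NASP, a chaperone of newly made histone H3, stood at 96.5 and 92.4 CPM against 52.98 and 63.0 CPM, a log2 fold change of 0.70 ± 0.21. FAM111B, a nuclear protease, stood at 24.6 and 21.95 CPM against 8.34 and 11.6 CPM, a log2 fold change of 1.22 ± 0.38. RRM2, NASP and FAM111B had close replicates at 24 h and no overlap. ATAD5, which unloads the replication clamp from DNA, stood at 8.55 and 9.96 CPM against 4.29 and 5.56 CPM, a log2 fold change of 0.91. Of the list, CLSPN, a checkpoint mediator at replication forks chosen after its values were seen, stood at 17.7 and 16.0 CPM against 12.04 and 9.56 CPM. E2F1, a transcription factor of the S phase chosen likewise, lay lower, with 3.18 and 3.88 CPM against 6.95 and 7.53 CPM. The median of the G1/S list was 0.41 in replicate 1 and −0.05 in replicate 2, and 0.01 to 0.39 with 1 library left out. The 46 genes of the G2/M phase had a median of 0.15, with 29 higher, and 9 higher and 3 lower with no overlap, close to the 13.5% and 11.4% of all genes. It was 0.18 in replicate 1, −0.06 in replicate 2 and 0.03 to 0.18 with 1 library left out.

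Other genes named for their small unadjusted p and higher at 24 h include 2 linked to splicing. LUC7L3, a splicing factor of the U1 particle, stood at 85.9 and 73.1 CPM at 24 h, against 49.5 and 36.7 CPM before NEE, a log2 fold change of 0.88 ± 0.28 (SE). PNISR, a protein of nuclear speckles, stood at 55.6 and 54.0 CPM against 37.8 and 28.9 CPM, a log2 fold change of 0.72 ± 0.23. In both genes the groups were separated by more than either replicate pair. PHLDB1, which binds membrane lipids and microtubule anchors, stood at 12.3 and 13.7 CPM against 6.08 and 4.46 CPM, a log2 fold change of 1.30 ± 0.40. ATXN7L2, a paralog of the SAGA subunit ataxin-7, stood at 4.85 and 10.4 CPM against 1.51 and 2.26 CPM, a log2 fold change of 2.01 ± 0.60. Replicate 2 was the higher at 24 h for both. ZNF570, TFCP2L1, SMIM31 and U2AF1L5 were named for the size of their change instead. Their unadjusted p were 0.013, 0.0727, 0.218 and 0.0171 (edgeR). ZNF570, a zinc finger gene, stood at 7.18 and 10.02 CPM against 3.01 and 0.638 CPM. TFCP2L1, a transcription factor of epithelia, stood at 7.32 and 5.15 CPM against 1.16 and 1.62 CPM. SMIM31, a small membrane protein, stood at 2.14 and 9.04 CPM against 0.753 and 1.74 CPM, and its 24 h replicates differed more than its groups did. U2AF1L5, which is nearly identical to the splicing factor gene U2AF1 and so uncertain, stood at 9.69 and 1.68 CPM against 0.869 and 0.985 CPM.

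Targets of the aryl hydrocarbon receptor, a ligand-activated transcription factor, were higher at 24 h in 7 of 9 members, against 50.1% of all genes, with a median of 0.30. That median was −0.02 without replicate 2 at 24 h and reached 0.66 without replicate 2 before NEE. CYP1B1, a cytochrome P450 enzyme, stood at 129 and 239.8 CPM at 24 h, against 83.9 and 104 CPM before NEE, a log2 fold change of 0.98 ± 0.33 (SE) that was 0.46 without replicate 2 at 24 h. TIPARP, an ADP-ribosyltransferase that restrains the receptor, stood at 78.3 and 93.9 CPM against 63.0 and 62.5 CPM, a log2 fold change of 0.46 ± 0.21. At 2 h the levels had been 749.6 and 622.9 CPM for CYP1B1 and 461 and 393 CPM for TIPARP, so both 24 h values lay far below the 2 h ones and above those before NEE. Heat shock chaperones had a median of 0.09, with 14 of 22 higher, 6 higher (13.5% of all genes) and 0 lower (11.4%) with no overlap. DNAJB4, a cochaperone of HSP70, stood at 39.9 and 50.4 CPM against 28.9 and 24.98 CPM, a log2 fold change of 0.74. HSP90AA1, the inducible HSP90 chosen after its values were seen, stood at 507 and 424 CPM against 338 and 323 CPM. Both lay above every value before NEE.

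Immediate early genes, which respond within minutes to hours of a stimulus, had a median of 0.03 with 13 of 24 higher. BTG2, an antiproliferative member of the list, stood at 23.9 and 20.2 CPM at 24 h, against 10.5 and 7.53 CPM before NEE, a log2 fold change of 1.28 ± 0.55 (SE). Targets of YAP and TAZ had a median of −0.01 over 25 genes and p53 targets one of −0.06 over 28. Actin and focal adhesion genes had a median of 0.09 over 37 genes. Their member TPM2, a tropomyosin that lines actin filaments, stood at 232 and 161 CPM against 116 and 111 CPM, a log2 fold change of 0.79 ± 0.30. For BTG2 and TPM2 both 24 h libraries lay above both earlier ones, with replicate 1 the higher. Extracellular matrix genes had a median of 0.27 with 23 of 35 higher, and COL4A6, a collagen chain of basement membranes, chosen after its values were seen, stood at 75.3 and 67.9 CPM against 49.1 and 40.7 CPM. The median of the matrix list moved between −0.22 and 0.73 with 1 library left out, and was negative without replicate 1 at 24 h. Membrane repair genes had a median of 0.01, with 15 of 27 higher. With no overlap, 2 were lower (11.4% of all genes) and 2 higher (13.5%). Keratins and junction genes had −0.05 over 32 genes, integrins −0.26 over 16 and alveolar type II markers 0.10 over 6. With 1 library left out, the medians of the other lists named here changed sign too, running from −0.14 to 0.20 for immediate early genes, −0.28 to 0.22 for YAP and TAZ targets, −0.15 to 0.13 for p53 targets and −0.16 to 0.27 for actin genes. They ran from −0.02 to 0.09 for membrane repair, −0.17 to 0.15 for keratins and junctions, −0.48 to 0.08 for integrins and −0.12 to 0.54 for alveolar markers.

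**Figure D4:**
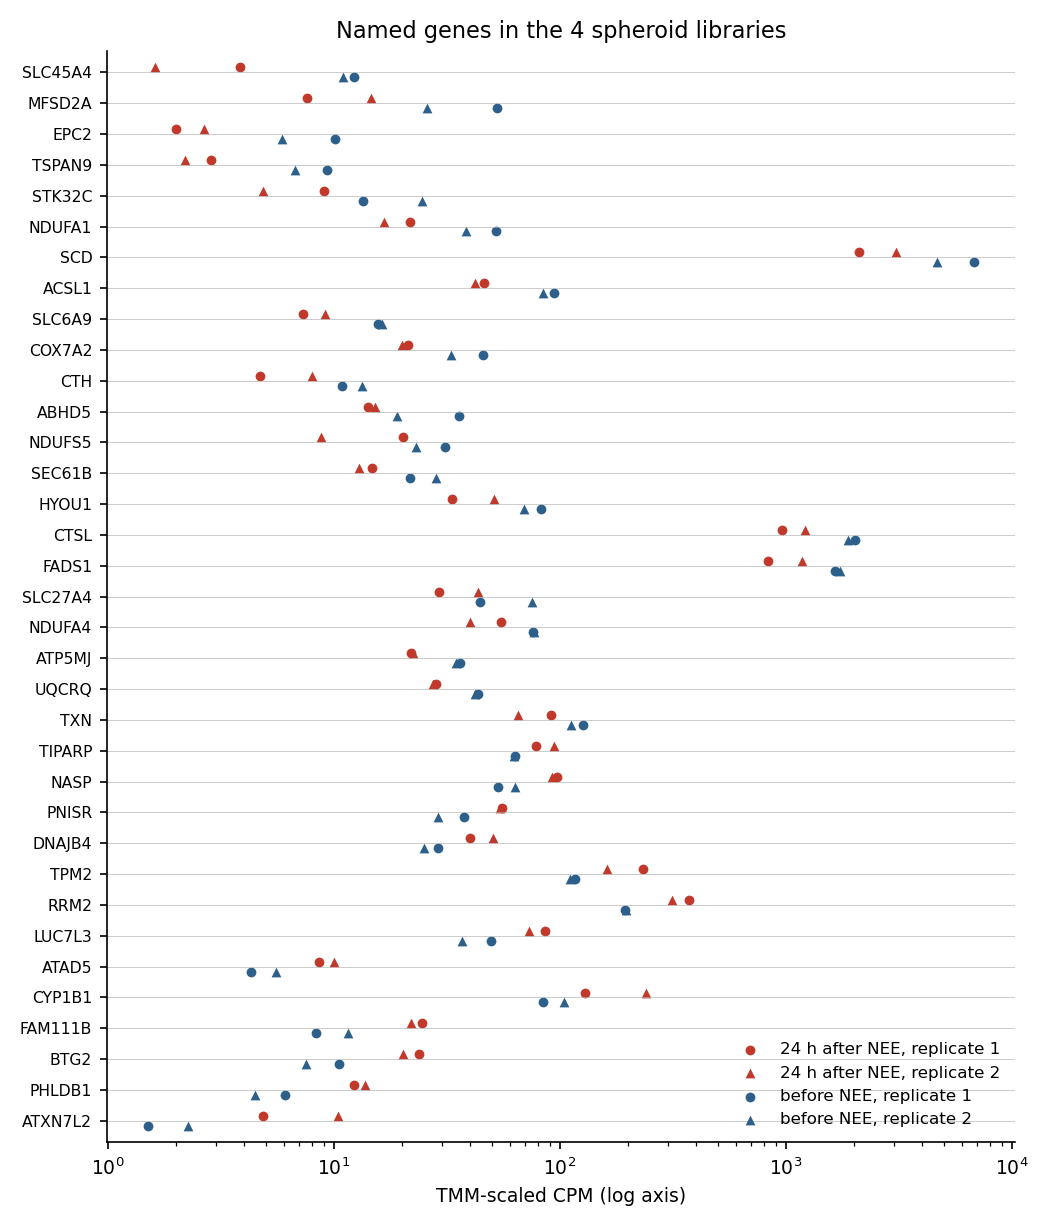
TMM-scaled CPM (x axis, log scale) of 35 named genes, leaving out those named for the size of their change alone, with 24 h after NEE in red and before NEE in blue, with circles for replicate 1 and triangles for replicate 2. Genes run from the lowest fold change at the top, SLC45A4 at −2.08, to the highest at the bottom, ATXN7L2 at 2.01. None of those drawn overlaps between the groups, which was a condition for the genes taken for their smallest p.

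The remaining named genes were lower at 24 h and mostly expressed at low levels. EPC2, a subunit of a histone acetyltransferase complex, stood at 2.00 and 2.66 CPM at 24 h, against 10.1 and 5.91 CPM before NEE, a log2 fold change of −1.78. SLC6A9, the glycine transporter GlyT1, stood at 7.27 and 9.09 CPM against 15.6 and 16.3 CPM, a log2 fold change of −0.96 ± 0.29 (SE). STK32C, a kinase, stood at 9.08 and 4.87 CPM against 13.5 and 24.5 CPM. SLC6A9 was the one of these with close replicates in both groups. SLC45A4, a member of a solute carrier family, stood at 3.85 and 1.62 CPM against 12.3 and 11.01 CPM, a log2 fold change of −2.08 ± 0.68. TXN, thioredoxin, stood at 90.9 and 65.4 CPM against 126 and 112 CPM, a log2 fold change of −0.60, within a list of 35 NRF2 targets whose median was −0.05, and −0.30 to 0.18 with 1 library left out.

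Of the genes with an empty library, BMPER, a secreted BMP regulator, was at 0 and 1.68 CPM at 24 h against 14.4 and 6.55 CPM before NEE. ANKS1A, an adaptor of receptor kinases, was at 3.14 and 0 CPM against 11.8 and 14.8 CPM. SLCO2B1, an organic anion transporter, was at 0 and 1.74 CPM against 8.80 and 4.52 CPM, and CEACAM7, an adhesion molecule, at 1.24 and 0 CPM against 9.32 and 1.51 CPM. Each had 1 empty library at 24 h, and ANKS1A was called without replicate 1 of the 24 h spheroids (edgeR adjusted p = 0.0479). BMPER and ANKS1A were also called without the filter on low values, and for both the adjusted p over the alternatives ran from 0.00976 to 1.0 (edgeR or DESeq2). MCAM, the adhesion molecule CD146, had the smallest p of all genes and was chosen after its values were seen. It had 0 and 0 counts at 24 h, against 62 and 43 counts before NEE (3.59 and 2.49 CPM), at least 37.4-fold lower against a floor of 3 counts over the 24 h group. It was the gene called by DESeq2 (adjusted p = 0.0428), with an edgeR adjusted p of 0.9999. In the spheroids between, it stood at 0.908 and 2.97 CPM right after NEE and at 1.85 and 1.71 CPM at 2 h. Of the 13412 genes tested, 3 had no count at 24 h and 15 had none before NEE. Each of these, MCAM included, passed the filter of 1 CPM only through the group that held counts. Their separation therefore follows in part from the filter.

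Inflammatory and hypoxia genes differed more between the replicates than between the times. NF-kB targets and chemokines were lower at 24 h in 24 of 25 members, with a median log2 fold change of −0.65, yet 1 member was lower with no overlap (against 11.4% of all genes). The fold change had a median of −0.75 in replicate 1 and 0.05 in replicate 2, and leaving out 1 library moved it from −1.27 to 0.47. CXCL8, the neutrophil chemokine interleukin-8, chosen after its values were seen, stood at 58.6 and 14.8 CPM at 24 h, against 205 and 9.79 CPM before NEE. SOD2, the mitochondrial superoxide dismutase induced by NF-kB, stood at 922 and 154 CPM against 2794 and 156 CPM. In both, replicate 1 before NEE stood highest and the replicates differed more than the groups. Replicate 1 was the higher at all 4 spheroid times for 18 of the 25 genes, against 1576 of all 13412 (11.8%). Hypoxia response genes were lower in 26 of 28 members with a median of −0.45, none of them free of overlap, and replicate 1 was the higher at all 4 times for 21 of the 28. ADM, the vasodilator adrenomedullin on that list, stood at 83.9 and 46.2 CPM against 332 and 41.3 CPM. The hypoxia median moved between −1.26 and 0.41 with 1 library left out. Both list medians were highest without replicate 1 before NEE and lowest without replicate 1 at 24 h. The same held for 13 of 19 glycolysis genes, whose median was −0.10 and moved between −0.30 and 0.11, and for 12 of 19 acute phase and complement genes, whose median was −0.29 and moved between −0.61 and 0.47.

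Cholesterol genes showed the opposite order of the replicates. They were lower in 18 of 25 members with a median of −0.18, and replicate 2 was the higher at all 4 times for 14 of the 25, against 1498 of all genes (11.2%). INSIG1, the sterol sensor of the ER, chosen after its values were seen, stood at 139.7 and 135 CPM at 24 h, against 150.4 and 388 CPM before NEE. Both 24 h libraries were below both earlier ones, but replicate 1 by little. The median was −0.72 without replicate 2 at 24 h and 0.13 without replicate 1 at 24 h or replicate 2 before NEE. Among NRF2 targets replicate 2 was the higher at all times for 16 of 35. The labels give the replicate number as a batch, and whether it marks a day of culture or of library preparation is not stated in the labels. Interferon-stimulated genes had a median of −0.22, with 20 of 29 lower and 6 lower with no overlap (11.4% of all genes), and it ran from −0.60 without replicate 1 at 24 h to 0.05 without replicate 2. The 9 nuclear long non-coding RNAs had a median of −0.02, with −0.35 to 0.51 when 1 library was left out.

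**Figure D5:**
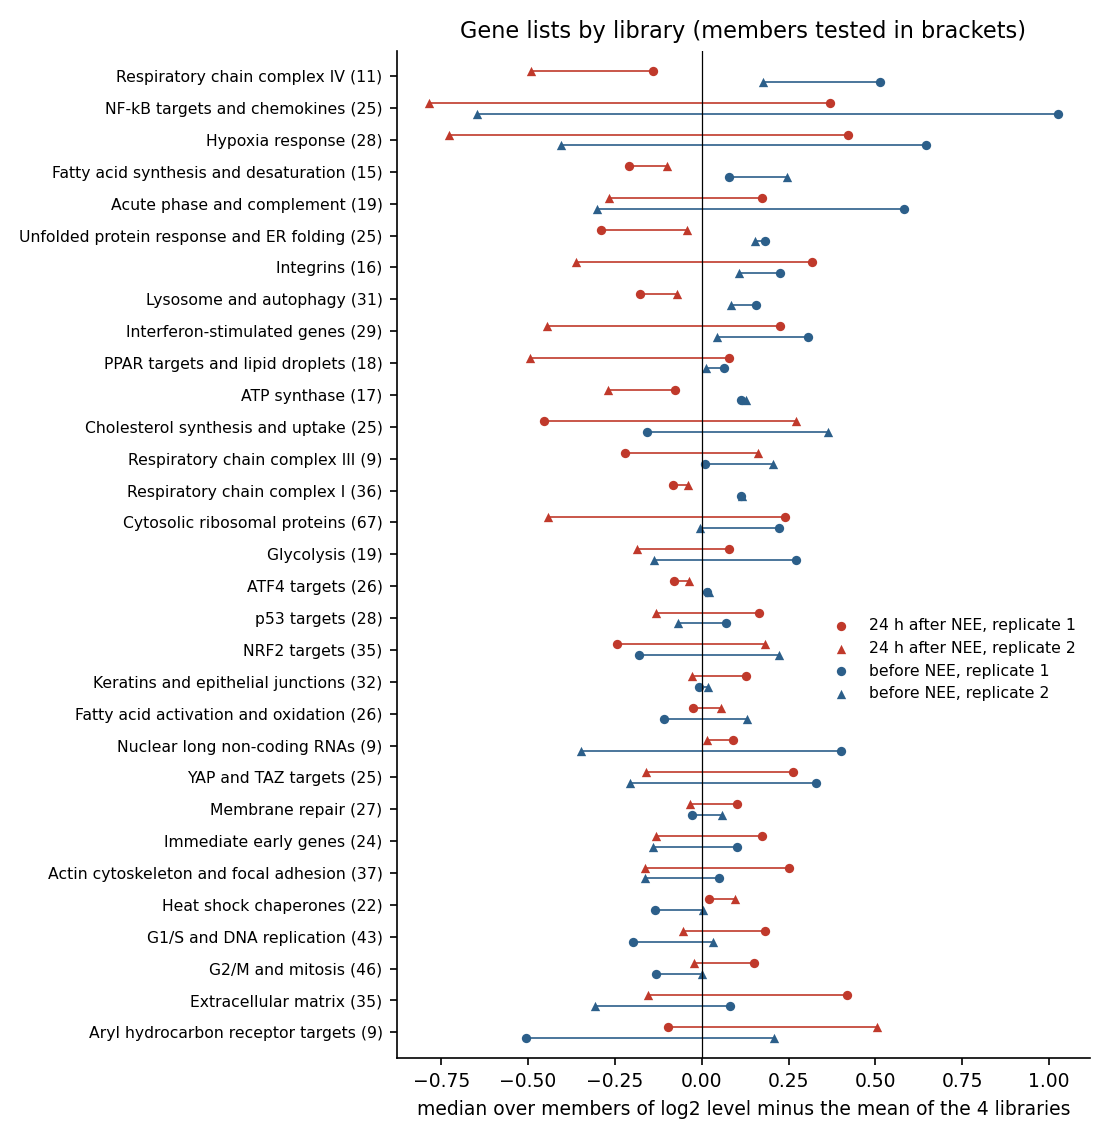
Median over each list's members of the log2 level in a library minus the mean of the 4 libraries (x axis), with 24 h after NEE in red and before NEE in blue, circles for replicate 1 and triangles for replicate 2. Complex IV, complex I, ATP synthase, fatty acid synthesis, the unfolded protein response and the lysosome list have both red marks left of both blue ones. ATF4 targets have the same order, but all their marks lie between −0.08 and 0.02. Heat shock chaperones have both red marks to the right. NF-kB targets and hypoxia genes are spread by replicate, from −0.79 to 1.03 and from −0.73 to 0.65.

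The same interval in A549 monolayers was set beside these values, with the difference between the cultures tested as an interaction. By edgeR 0 genes were called in the interaction (0.0%) and 382 had an unadjusted p under 0.05 (2.85%). The count by DESeq2 was 3. Within monolayers 0 genes were called between 24 h and before NEE, with 572 at an unadjusted p under 0.05 (4.26%). ACSL1 in monolayers stood at 35.7 and 35.7 CPM at 24 h, against 66.6 and 57.8 CPM before NEE, a log2 fold change of −0.80, and the interaction was −0.21 ± 0.38 (SE). ACSL1 was thus lower at 24 h in all 4 pairs of same-numbered libraries of both cultures. Complex IV members were lower in 9 of 11 in monolayers with a median of −0.15, against 11 of 11 and −0.69 in spheroids, and the median interaction was −0.48. The lysosome list had −0.08 in monolayers and the unfolded protein response list −0.10. Replicate 1 of the monolayers before NEE stands apart from the other lysates in makeup, and without it 0 genes were called and 312 had an unadjusted p under 0.05. Without replicate 2 of that group 6 were called and 1446 had such a p.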

How the data were processed

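Smart-Seq2 libraries were sequenced from A549 lysates, 2 biological replicates for each of 4 times in spheroids and monolayers (16 libraries), and from NEE-sampled RNA (3 libraries, not used here). The deposited values are raw gene counts; the submitters' processing notes name FastQC, Trimmomatic, HISAT2, featureCounts and the build GRCh38 for the authors' steps. Versions, annotation release, strand setting and the counting of multiply mapping reads are not given there or in the labels, so overlapping genes and near-identical copies are uncertain. Symbols were given to 58613 of 62700 genes, and positions come from GENCODE release 29.

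Genes with at least 1 CPM in at least 2 of the 4 spheroid libraries compared were kept. The 16 lysate libraries in 8 groups were fitted with edgeR 4.0.16 in R 4.3.3 (TMM scaling, robust quasi-likelihood F test, 8 residual degrees of freedom, biological coefficient of variation 0.412), with Benjamini-Hochberg adjustment over 13412 genes at 0.05. Levels are TMM-scaled CPM. Alternatives were DESeq2 1.42.0, RLE and upper-quartile scaling, other filters, fewer libraries, the replicate block, leaving out each library, another pseudocount (2 CPM) and, added after seeing the data, GC offsets (longest transcript, 13183 genes with a value). The main fit was also run on simulated counts with known changes. Those counts held no difference by replicate number or GC share, so they cannot show how the test performs where these are present.

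The replicate number is the labels' batch tag. It was used to match libraries for the values given by replicate and as a block in alternative fits only. The fit reported here has no block. Deviations from the group means correlated over 10054 genes by −0.07 to 0.50 between pairs of spheroid times, the lowest between 24 h and before NEE.

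Named genes are ACSL1, then the 8 with the smallest p and the 4 further with the largest change of each sign among protein-coding genes that did not overlap and reached 5 CPM in the higher group, then up to 2 members of each list and sign at an unadjusted p under 0.05. The comparison, the gene lists and the rule were chosen with earlier results of these data known. The labels call the replicates biological and do not say what was repeated. The p-values set each difference against the spread between such replicates, estimated over all 16 lysate libraries and not the 4 compared alone. Some items are left out of the text and figures.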

Additional observations from a re-analysis of the deposited data

Results flagged for a closer look

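The groups moved in opposite directions without overlap in spheroids and monolayers for 5 of the 45 named genes. Genes named for their smallest p or largest change were taken only without overlap in spheroids. The share of all tested genes with such opposite directions is not given, so the 5 are described by their values only. The values given are the log2 fold change in spheroids minus that in monolayers, and none passed the edgeR interaction test (adjusted p = 1.0 for each). PHLDB1 had an interaction of 2.04, with 18.4 and 17.2 CPM in monolayers at 24 h against 39.7 and 19.7 CPM before NEE. For FAM111B it was 1.54, with 35.3 and 38.6 CPM in monolayers at 24 h against 39.6 and 52.6 CPM. TIPARP had 0.77, with 88.4 and 96.0 CPM in monolayers at 24 h against 131 and 98.6 CPM. TSPAN9 had −2.18, with 4.22 and 6.53 CPM in monolayers at 24 h against 3.56 and 3.97 CPM. SLC45A4 had −3.87, with 8.80 and 6.68 CPM in monolayers at 24 h against 1.84 and 2.65 CPM. Replicate 1 of the monolayers before NEE, which stands apart, enters each of these.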

How the results depend on the processing

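Called genes numbered 0 in each direction under every alternative run, with these exceptions. Without a filter 5 genes were called higher and 11 lower, 14 of these 16 among the 13412 genes, with MFSD2A, BMPER, ANKS1A and SCD among them. DESeq2 called 1 lower, and leaving out 1 library gave 0 to 1 lower, the 1 being without replicate 1 of the 24 h spheroids. Higher genes at an unadjusted p under 0.05 (140) numbered 72 in the 4 libraries alone, 242 with edgeR's own filter, 83 at 5 CPM, 481 without a filter, 230 with the replicate block within culture and 138 to 286 with 1 library left out. Lower ones (124) numbered 67, 203, 83, 408, 234 and 123 to 455, and 212 with GC offsets and the replicate block. With 1 library left out, the highest counts came without replicate 1 before NEE (286 higher) and without replicate 1 at 24 h (455 lower), and without replicate 2 before NEE there were 275 higher. The overall replicate block gave 195 higher and 184 lower and changed no call. In the interaction DESeq2 called 3 genes and leaving out 1 library 0 to 6, with 290 to 1446 at an unadjusted p under 0.05. Where a group kept 1 library, it was assumed to vary like the others. Of 715 comparisons for named genes 710 kept direction and side of the threshold and 5 passed it, and of 590 for list medians 537 moved by less than the spread and 53 by more. The cause was not tested.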
